A study of Mus musculus with 12 samples.

Results

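Most of the genes described here encode splicing factors or other proteins that bind RNA. They were chosen by symbol: the SR proteins (Srsf), the heterogeneous nuclear ribonucleoproteins (Hnrnp), the numbered RNA-binding motif genes (Rbm), the Celf, Elavl, Rbfox, Nova and Ptbp regulators, and the Sf3a, Sf3b and Prpf components of the spliceosome. Rbm15 and Rbm15b, which belong to the m6A methyltransferase complex, were left out. RefSeq (GRCm38.p6) lists 116 mouse genes with such a symbol, of which 108 are protein-coding. Of the 116, 96 had at least 1 m6A peak in hippocampal RNA, 95 in wild-type (WT) and 86 in Tyrobp-/- mice (Rbm3os, a non-coding gene with a WT peak, included), among 17779 genes with a peak in either genotype. These genes held 206 of the 33622 peaks called in WT mice and 193 of the 34935 peaks called in Tyrobp-/- mice, and 51 of the 5640 regions, from 40 genes, in the authors' table that compares the genotypes.

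The peaks come from MeRIP-seq, in which fragmented poly(A) RNA is precipitated with an antibody against N6-methyladenosine (m6A) and sequenced beside the same RNA without precipitation (the input). The animals were male C57BL/6 mice aged 6 months. Tyrobp-/- mice carry a TALEN-made deletion in exon 2 of Tyrobp, the gene of a microglial adaptor protein, and WT littermates were the controls. There were 3 samples per genotype, each a pool of the hippocampal RNA of 3 mice, and IP and input of each were sequenced, which makes 12 libraries of 61189368 to 73554506 valid reads. The authors called peaks on the 3 samples of a genotype together, so each peak has a single fold enrichment (IP over input) per genotype. No error between samples could be given, no difference between genotypes was tested, and intervals cover counting error only. In whole hippocampus, fewer cells of a type and less RNA per cell cannot be told apart. All 7 markers of hippocampal neurons, all 3 of astrocytes and all 3 of oligodendrocytes carried a peak in both lists, as did 3 of 4 microglial markers, all but Trem2. Neither of 2 liver markers had a peak, and of 2 skeletal muscle markers Ckm had one in both lists. Of 5 hypothalamic markers, 2 (Oxt and Trh) had a peak in WT and 0 in Tyrobp-/- mice, and the part of this difference in the results was not tested.

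As background, pre-mRNA splicing removes introns in a machine built from small nuclear ribonucleoproteins, among whose proteins are the SF3A and SF3B parts of U2 and the PRPF proteins of U4/U6.U5. SR proteins and hnRNPs bind exons and introns and steer the choice of splice site, often in opposite directions, and neurons add tissue-restricted regulators such as CELF, ELAVL, RBFOX and NOVA proteins. m6A is placed on adenosines in a short sequence context, most densely near stop codons and in 3′ UTRs, and some hnRNPs bind RNA more readily where it is methylated. The antibody used in MeRIP-seq also recognises m6Am, a modified adenosine next to the cap, so a peak at the very start of a transcript can hold either mark.

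Most of these genes carried a peak in both genotypes. In WT mice 94 of the 108 protein-coding genes (87.0%) had a peak, beside 56.8% of all protein-coding genes in RefSeq. In Tyrobp-/- mice 86 (79.6%) had one, beside 58.2% of all. Every gene of the Srsf, Celf, Elavl and Nova families carried a peak in WT mice. Both lists held a peak of 85 of the genes and neither list one of 13. In WT mice only, 9 genes had a peak (8.33%, beside 3.83% of all protein-coding genes). In Tyrobp-/- mice only, 1 did (0.926%, beside 5.13%), so over all genes the imbalance ran the other way. This split rests partly on weak peaks and on gene names. At an FDR below 1e-5, 84 genes had a peak in WT and 81 in Tyrobp-/- mice, a count not made over all genes. Sf3a3 and Hnrnpk, listed in WT only, had a Tyrobp-/- peak at the same place under another name. For Prpf39, Rbm3 and Rbm46 the FDR was 0.0302 to 0.0794. The lists do not separate a gene without the mark from one with too few reads for a call.

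The peaks were of modest strength. Their median fold enrichment was 3.83 (95% interval of the median 3.43 to 4.60) in WT mice, beside 5.54 for all peaks, and 3.97 (3.35 to 4.76) in Tyrobp-/- mice, beside 5.72. A low peak-calling FDR was more frequent among them: 76.2% of them in WT and 80.8% in Tyrobp-/- mice had an FDR below 1e-5, beside 64.4% and 63.3% of all peaks. Fold enrichment thus ran below the general level, and the share of peaks at low FDR above it. By family, the WT medians went from 2.38 in the Sf3 and 3.09 in the Srsf genes, through 3.70 in the Hnrnp and 4.23 in the Rbm genes, to 15.7 in the 3 peaks of the Ptbp genes. Of these 3, 2 were overlapping calls (15.8 and 15.7) that reach upstream of Ptbp1, and the Ptbp3 peak was 3.97. The medians in Tyrobp-/- mice had the Celf (2.54) and Sf3 (2.57) genes at the low end and the Ptbp genes (14.2) at the high end.

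**Figure D1:**
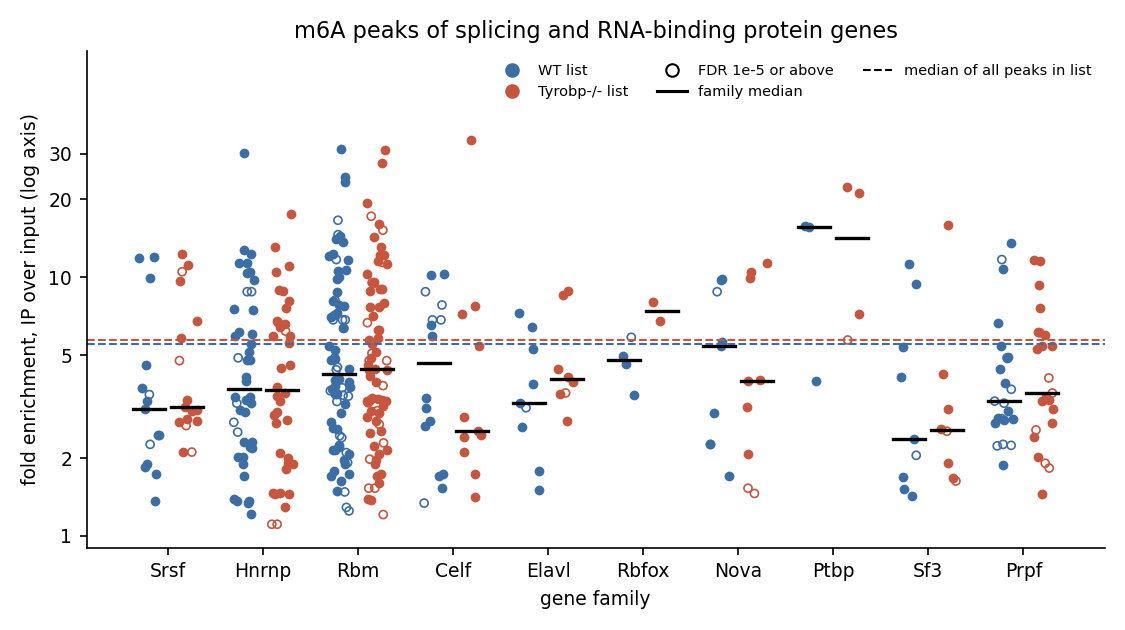
Fold enrichment of IP over input (log axis) of every peak of the 10 gene families in the WT (blue) and Tyrobp-/- (red) lists. Open circles are peaks with an FDR of 1e-5 or above, black bars are family medians and dashed lines the medians of all peaks in a list (5.54 and 5.72). Most family medians lie below the dashed lines, and the highest points are Rbm20 (31.3) and Hnrnpf (30.3) in WT and Celf3 (34.0) and Rbm19 (30.9) in Tyrobp-/- mice.

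The place of the peaks on the transcript differed between families. In WT mice 107 of the 206 peaks (51.9%, exact interval 44.9 to 58.9%) lay in 3′ UTRs, beside 47.2% of all peaks, and 60 (29.1%, 23.0 to 35.8%) in 5′ UTRs, beside 18.9%. First exons held 5 peaks (2.43%, 0.793 to 5.57%), beside 11.5% of all. In Tyrobp-/- mice the shares were 56.5% (49.2 to 63.6%) in 3′ UTRs, beside 49.3%, and 22.3% (16.6 to 28.8%) in 5′ UTRs, beside 17.3%. The counting interval of the 3′ UTR share thus held the share of all peaks in both lists. That of the 5′ UTR share lay above it in WT mice and held it in Tyrobp-/- mice.

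The Hnrnp genes held the most 5′ UTR peaks of any family in WT mice. Of their 44 WT peaks, 23 (52.3%, 36.7 to 67.5%) lay in 5′ UTRs, spread over 14 genes, and 9 (20.5%) in 3′ UTRs. Their 38 Tyrobp-/- peaks held 13 (34.2%, 19.6 to 51.4%) in 5′ UTRs, from 10 genes, and 12 (31.6%) in 3′ UTRs. The larger Rbm group held 16 of 74 peaks in 5′ UTRs in WT mice (21.6%) and 15 of 73 in Tyrobp-/- mice (20.5%), more there than the Hnrnp genes in number. Several families had the reverse arrangement: 12 of 15 WT peaks of Srsf genes, 17 of 23 of Prpf genes, 7 of 9 of Elavl and 7 of 9 of Nova genes lay in 3′ UTRs, and both Nova genes had 0 peaks in a 5′ UTR in either list. Among the Hnrnp peaks annotated to a 5′ UTR, 4 of Hnrnpm in WT and 2 in Tyrobp-/- mice lay wholly outside the RefSeq gene, over its neighbour Marchf2. Without peaks that lie mostly outside their RefSeq gene, the 5′ UTR share of the Hnrnp genes was 47.4% in WT and 28.6% in Tyrobp-/- mice. With only the strongest peak of each gene, it was 61.1% in WT and 60.0% in Tyrobp-/- mice, so the 2 genotypes then lay close together.

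**Figure D2:**
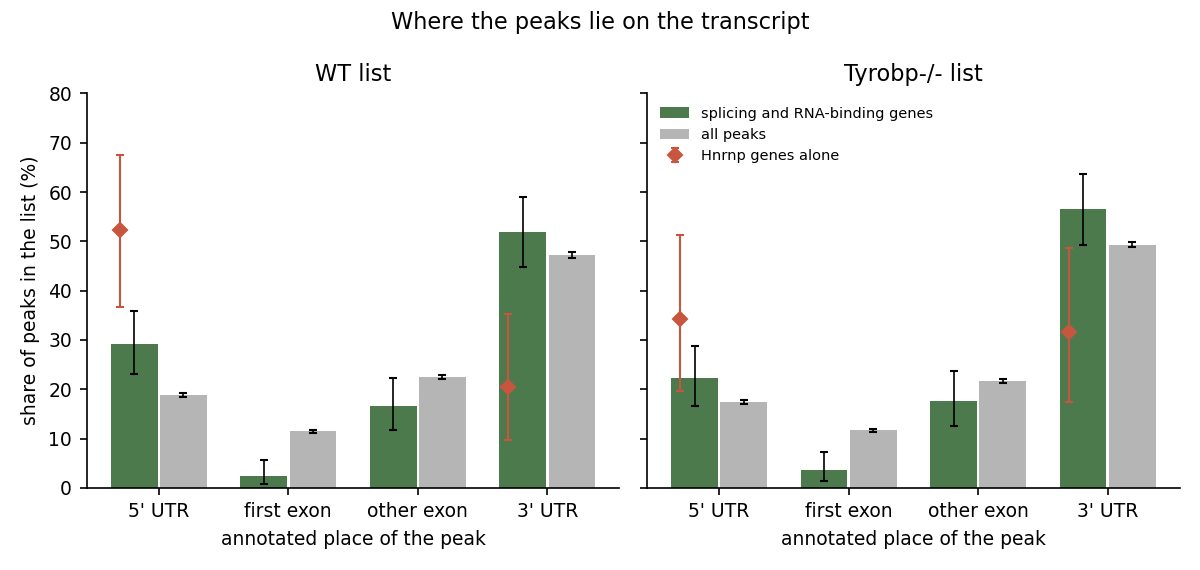
Share of peaks (%) by annotated place in the WT list (left) and the Tyrobp-/- list (right), for the splicing and RNA-binding protein genes (green), all peaks (grey) and the Hnrnp genes alone (red diamonds), with exact 95% intervals for counting error. The Hnrnp diamonds stand at 52.3% and 34.2% for 5′ UTRs, above the grey bars of 18.9% and 17.3%.

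For 80 of the 96 genes the RefSeq promoter table used here holds an annotated start, and in 8 of these it lay inside a peak in both lists. The other 16 were not analysed here. The sequences around the start of the 4 of these 8 with the highest WT fold enrichment over it show which base would carry a cap-adjacent mark. Each line gives 15 bases before the start and 15 from it, 5′ to 3′ on the transcribed strand (RefSeq, GRCm38.p6), with the first transcribed base in capitals. Ptbp1 lies at chr10:79854417-79854446 (forward strand), Hnrnpdl at chr5:100039208-100039237, Hnrnpd at chr5:99978924-99978953 and Elavl3 at chr9:22052009-22052038 (all 3 on the reverse strand).
Ptbp1: ctcccccaccggccgTttccgtcttccgtc
Hnrnpdl: gccgctcgcgattccCggtcccgcacggct
Hnrnpd: ccgttcttccgtcggCcattttaggtggtc
Elavl3: gcggcagtgcgacccAgagcgcggagcgcg
Of these, Elavl3 alone has an adenosine as its first annotated base, and among all 8 genes Elavl3 and Prpf31 do (2 of 8), beside 34.4% of the 32851 starts in that table. The core of the m6A context, GGAC on the transcribed strand, occurred within the first 50 transcribed bases of 1 of the 8, Rbm14, beside 18.9% of all annotated starts. These are matches of letters to annotated starts, which can differ from the starts used in hippocampus. The strongest peaks over these starts had fold enrichments of 15.8 in WT and 22.3 in Tyrobp-/- mice for Ptbp1, 11.3 and 13.1 for Hnrnpdl, 10.4 and 11.0 for Hnrnpd, and 6.42 and 8.82 for Elavl3. Those of Ptbp1 reach far upstream: 8.77% of the bases of the WT peak lie in Ptbp1, and the rest over its neighbour E130317F20Rik.

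Among the SR proteins, which bind exonic enhancers and recruit the spliceosome, Srsf4 and Srsf5 carried the strongest peaks. Srsf4 had a broad 3′ UTR peak (chr4:131900300-131901706, a place it shares with Gm12992) of 12 in WT and 12.3 in Tyrobp-/- mice, overlapped by a second call of 11.9 and 11.1. Srsf5 had a single 3′ UTR peak (chr12:80949758-80950417 in WT) of 9.96 and 9.67. The values of both genes lay close together in the 2 lists, with no error to set beside the difference. Srsf6 carried its only peak outside the UTRs, in exon 2 of 5 (chr2:162932252-162932670), at 4.57 in WT and 6.79 in Tyrobp-/- mice, with identical limits in both lists.

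The other SR genes had weaker peaks, mostly in the 3′ UTR. The strongest of Srsf1, the founding splicing factor of the family, was 3.72 in WT and 5.83 in Tyrobp-/- mice, at the same 180 bases of the 3′ UTR (chr11:88053576-88053755). For Srsf2, which also acts in transcription, the values were 1.89 and 3.06. Srsf9 stood at 3.09 and 3.35, Srsf11 at 1.84 and 2.12, and Srsf12 at 3.31 and 2.82. The strongest Srsf10 peak at FDR below 1e-5 was 2.46 in WT and 3.05 in Tyrobp-/- mice, and a 5′ UTR peak of 10.5 in the latter had an FDR of 0.0174. Srsf3 had peaks of 2.26 and 2.11 at weaker support (FDR 0.00589 and 5.01e-05). Srsf7 had a single weak peak, 1.36 at the 5′ UTR in WT mice, and none in Tyrobp-/- mice. Of the 13 matched Srsf peaks, 9 were higher (69.2%, beside 53.6% of all matched peaks) and 4 lower in Tyrobp-/- mice. None differed by 2-fold, and the median log2 ratio was 0.20, beside 0.05 for all.

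Among the CELF proteins, which regulate splicing and mRNA stability and are prominent in neurons, Celf3 held the highest ratio of Tyrobp-/- to WT mice at FDR below 1e-5. Its 3′ UTR peak (chr3:94491989-94492198 in WT, 210 bases) had a fold enrichment of 10.3 in WT and 34.0 in Tyrobp-/- mice, 3.30-fold higher, with an FDR of 6.31e-32 and 1e-104. The same gene's peak in exon 12 of 14 went the other way, 3.42 in WT and 2.12 in Tyrobp-/- mice. The Celf3 gene therefore carried 2 peaks with opposite differences. Celf4, which binds many synaptic mRNAs, had 3 matched peaks in the 3′ UTR. One was 10.2 in WT and 7.77 in Tyrobp-/- mice, the next 3.11 and 1.73, and the last 1.70 and 2.42. Its 5′ UTR peak was 5.92 and 7.19. The strongest Celf4 peak thus lay in the 3′ UTR, and its 4 peaks had no common direction. The other members differed by less than 1.5-fold: 1.53 and 1.42 for Celf1, 2.77 and 2.89 for Celf2, 6.56 and 5.42 for Celf5, and 1.74 and 2.45 for Celf6 at their matched 3′ UTR peaks. The highest listed WT values of Celf2 (6.84), Celf5 (7.81) and Celf6 (8.79) belong to 5′ UTR peaks with FDRs of 0.275, 0.162 and 0.0933 that had no partner in Tyrobp-/- mice. A Celf5 peak of 2.54 listed in Tyrobp-/- mice alone overlaps a WT peak of 3.99 assigned to Gm16105.

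The ELAVL (Hu) proteins bind AU-rich elements and stabilise mRNAs, with ELAVL1 found widely and the others mainly in neurons. Elavl3 had the most peaks, 5 in WT and 4 in Tyrobp-/- mice. Its strongest were a 3′ UTR peak of 7.26 in WT and 8.56 in Tyrobp-/- mice (chr9:22015993-22016622 in WT) and the 5′ UTR peak at its start described above. The 3′ UTR peaks of Elavl1 were 3.86 and 3.94, and those of Elavl2 were 5.27 and 4.41. The supported peak of Elavl4 was 1.79 and 2.78. Of the 7 matched Elavl peaks, most of them in Elavl3, 6 were higher in Tyrobp-/- mice (85.7%, beside 53.6% of all matched peaks). The median log2 ratio of the 7 was 0.33, beside 0.05 for all, and none differed by 2-fold.

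RBFOX proteins bind UGCAUG elements and RBFOX3 is the neuronal antigen NeuN. Rbfox3 had 2 adjacent 3′ UTR peaks in WT mice, 3.51 and 4.98, where Tyrobp-/- mice had 1 broad peak of 1440 bases at 6.77 (chr11:118489762-118491201). A 5′ UTR peak of Rbfox3 in WT mice (5.86, FDR 0.00309) had no partner. Rbfox2 had a 5′ UTR peak of 4.60 in WT and 8.01 in Tyrobp-/- mice. Rbfox1 had no peak in either list. Both matched peaks of the family were thus higher in Tyrobp-/- mice, by less than 2-fold, beside 53.6% of all matched peaks.

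The genes of the NOVA proteins, neuronal regulators of synaptic exons, carried most of their peaks in 3′ UTRs. Nova1 carried 2 broad peaks, 9.74 and 9.88 in WT against 9.95 and 11.3 in Tyrobp-/- mice, the stronger over the same 1080 bases in both (chr12:46699878-46700957). One more Nova1 peak, 10.5 in Tyrobp-/- mice (chr12:46694607-46694846), lay outside the RefSeq gene. Nova2 was among the genes with most peaks, 7 in WT and 6 in Tyrobp-/- mice, and its main 3′ UTR peak was 5.61 in WT and 4.00 in Tyrobp-/- mice. The highest listed Nova2 value, 8.79 in WT mice, was paired with a peak of 1.46 in Tyrobp-/- mice with which it shares 1 base, so this pair compares neighbouring places.

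PTBP1 represses neuronal exons outside neurons and gives way to PTBP2 as neurons differentiate. The upstream Ptbp1 peak had the highest fold enrichment of the regulator families in WT mice, 15.8, and 22.3 in Tyrobp-/- mice, with the position given above. Ptbp3 had a 3′ UTR peak of 3.97 and 7.23. Ptbp2 had no peak in either list. All 3 matched Ptbp peaks were higher in Tyrobp-/- mice, beside 53.6% of all matched peaks. Of the 3, 2 are overlapping calls at 1 place.

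**Figure D3:**
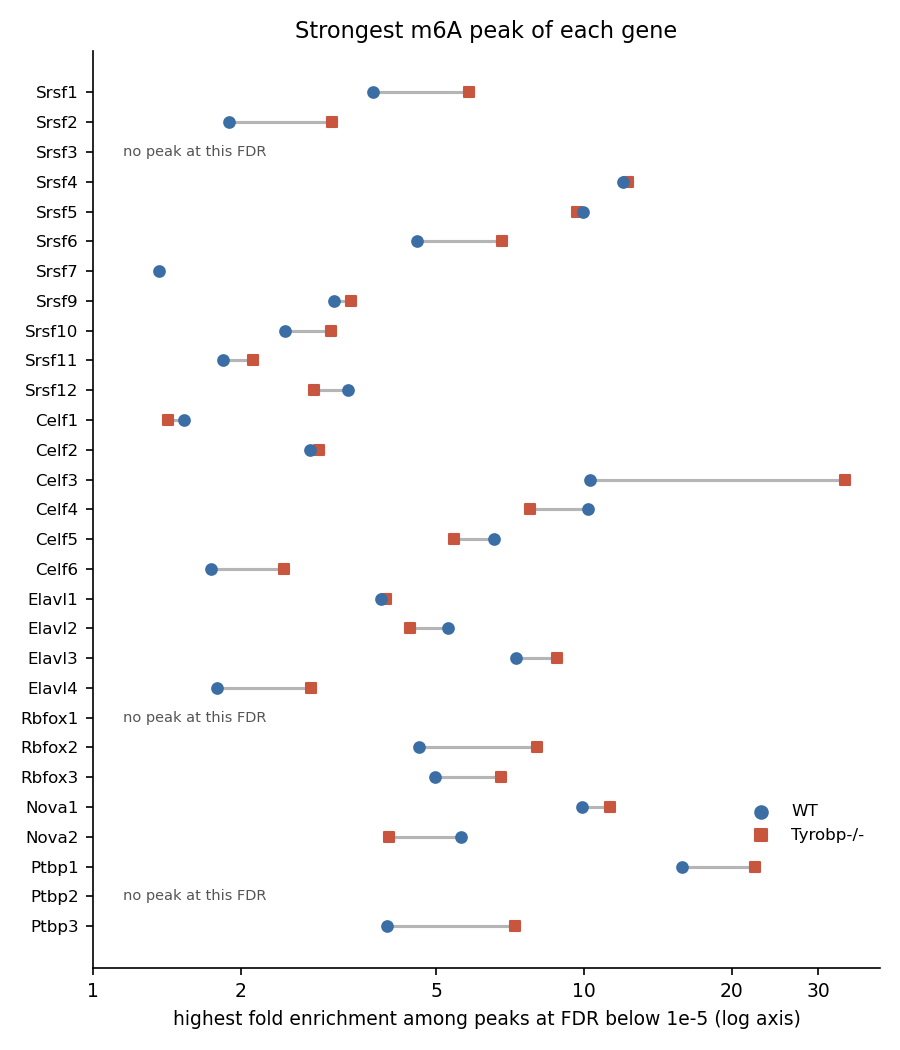
Highest fold enrichment (log axis) among the peaks at FDR below 1e-5 of each Srsf, Celf, Elavl, Rbfox, Nova and Ptbp gene, in WT (blue circles) and Tyrobp-/- mice (red squares), 1 pooled value per genotype. Celf3 shows the widest gap (10.3 and 34.0), Srsf4, Srsf5, Celf2 and Elavl1 have nearly coinciding points, Srsf7 has a WT point alone, and Srsf3, Rbfox1 and Ptbp2 have no peak at this FDR.

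The hnRNPs package nascent RNA and often silence exons. Hnrnpa0 had the strongest peak of the family in Tyrobp-/- mice, 17.6 against 11.3 in WT mice, in the 3′ UTR (chr13:58126950-58127455 in WT). A 91-base peak of 10.5 just beside it in WT mice (FDR 2.51e-28) had no partner, and the Tyrobp-/- peaks stopped on either side of that place. Besides the peak at its start, Hnrnpd had a shorter overlapping call of 12.3 in WT and 10.5 in Tyrobp-/- mice, so its 2 calls differed in direction. The 3′ UTR peak of Hnrnpr was 9.74 and 8.84. The strongest WT peak of the family, 30.3 for Hnrnpf, lay in a first exon at a place that also belongs to 4933440N22Rik. Hnrnpf had 4 peaks in WT and 7 in Tyrobp-/- mice.

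Some hnRNPs are known to bind RNA in a manner that depends on m6A. Hnrnpc, which binds U tracts opened by the modification, had no peak of its own in either list. Hnrnpa2b1, described as a nuclear reader, had 3 peaks in each genotype. In WT mice 1 peak in exon 8 of 10 reached 3.02 and 1 in the 3′ UTR 1.39, where Tyrobp-/- mice had a single peak over both places of 3.75 (chr6:51463273-51464797). Another peak, in exon 7 of 10, had identical limits in both lists and values of 1.90 and 2.00. One of 6.19 in Tyrobp-/- mice alone had an FDR of 0.00912. Rbmx, another such reader whose symbol falls outside the selection, had 3′ UTR peaks of 5.27 and 1.63 in WT and of 5.38 and 1.51 in Tyrobp-/- mice. Where these readers had matched peaks, enrichment was low to moderate and lay close together in the 2 genotypes.

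The Rbm genes were the largest group, with 74 peaks in WT and 73 in Tyrobp-/- mice. Rbm19, which acts in ribosome biogenesis, had the strongest peak of the group in Tyrobp-/- mice, 30.9 against 24.4 in WT mice, over 1051 bases of the 3′ UTR (chr5:120197931-120198981 in Tyrobp-/- mice). Rbm12b2 had a broad peak of 14.1 and 19.4, and its neighbour and paralog Rbm12b1 had one in exon 4 of 4 of 10.6 and 12.2. How reads shared by these paralogs were assigned is not known here, so their values are uncertain, and the same holds for Rbm4 and Rbm4b. Rbm4, a regulator of exon inclusion, had a peak in exon 3 of 4 with overlapping calls of 14.4 and 13.7 in WT and 13.1 and 12.2 in Tyrobp-/- mice. Rbm4b had 6 peaks in WT and 8 in Tyrobp-/- mice, the strongest 12.1 and 16.0, which were not matched to each other as a pair. All peaks of Rbm4 and Rbm4b also overlap Gm21992. The peaks of Rbm19, Rbm12b2, Rbm12b1, Rbm4 and Rbm4b given here were thus above 10 in both genotypes.

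Rbm20, best known as the splicing regulator of titin in heart muscle, was covered by several exonic peaks of high fold enrichment, 5 in WT and 9 in Tyrobp-/- mice. The peak in exon 2 of 14 was 23.4 in WT and 27.6 in Tyrobp-/- mice. Another WT peak of 31.3, the highest of all these genes in WT mice, spans 982 bases (chr19:53820751-53821732), and Tyrobp-/- mice had 3 short peaks there with 9.53, 3.81 and 5.08. That place also lies in Gm16299, and the read depth behind these peaks is unknown. The FDR was 5.89e-06 for the WT peak of 23.4 and 7.41e-10 for that of 31.3, which are less extreme than for the peaks of Rbm19 (1e-234 in WT mice).

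Of the core spliceosome genes, the Sf3 group had few and mostly weak peaks. Sf3b1, the branch-site subunit, had 2.05 in WT and 1.91 in Tyrobp-/- mice, Sf3b2 1.69 and 2.59, Sf3b3 1.43 and 1.67, and Sf3a1 2.38 and 3.09, all in 3′ UTRs. The 2 Sf3b1 peaks share 1 base. Sf3b4 had a 5′ UTR peak of 5.37 in WT and 4.23 in Tyrobp-/- mice, and Sf3a2 a 3′ UTR peak of 4.12 and 2.54. The Sf3a3 peak, 9.44 in WT mice, is described below. Sf3b5 had the highest values of the group, with a 5′ UTR peak of 11.2 in WT and 15.9 in Tyrobp-/- mice (chr10:13008409-13009183 in WT). Among the Prpf genes, Prpf31, a U4/U6 protein whose loss of function causes retinitis pigmentosa in people, had the most peaks, 7 in each list. Its strongest, 13.5 in WT and 11.5 in Tyrobp-/- mice, lay in the 3′ UTR over 987 bases that also overlap the predicted gene Gm15927. Prpf4, another U4/U6 protein, had a 3′ UTR peak of 10.8 in WT and 11.7 in Tyrobp-/- mice (chr4:62423230-62424483 in WT). Of 7 matched Sf3 and 19 matched Prpf peaks, 4 and 13 were higher in Tyrobp-/- mice (57.1% and 68.4%, beside 53.6% of all matched peaks).

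To compare the genotypes, a WT and a Tyrobp-/- peak of the same gene were counted as partners when their exon blocks shared at least 1 base. A partner was found for 164 of 206 WT peaks (79.6%, 73.5 to 84.9%), beside 77.5% of all, and for 162 of 193 Tyrobp-/- peaks (83.9%, 78.0 to 88.8%), beside 75.4% of all. The 42 WT peaks without a partner were weaker, with a median of 3.20 against 3.95, and 71.4% of them had an FDR below 0.05 against 100% of those with one. Among them 22 lay in 5′ UTRs (52.4%, 36.4 to 68.0%), beside 23.3% of all WT peaks without a partner, and 12 in 3′ UTRs (28.6%, beside 28.3%). Of the 31 Tyrobp-/- peaks without a partner, 8 lay in 5′ UTRs (25.8%, 11.9 to 44.6%), beside 1552 of all 8602 such peaks, and 17 in 3′ UTRs (54.8%, 36.0 to 72.7%), beside 40.6%.

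For ratios, a peak was kept with the partner that shares the most bases where this choice was mutual. These 145 one-to-one pairs, from 84 genes, had slightly higher fold enrichment in Tyrobp-/- mice. Fold enrichment is a ratio within a genotype, so it does not give the total m6A level of either. The median log2 ratio was 0.14 (interval 0.08 to 0.24), beside 0.05 for all 23523 pairs, and 92 pairs (63.4%) were above 0, beside 53.6% of all. With 1 value per gene, 57 genes were above 0 and 27 below. The median was highest in 3′ UTRs: the 86 pairs there had 0.23 (0.12 to 0.36) with 61 above 0, beside 0.08 for all pairs in 3′ UTRs. The 31 pairs in 5′ UTRs had 0.13 (-0.04 to 0.42), beside -0.01 for all, and the 25 in exons other than the first -0.04 (-0.24 to 0.11), beside -0.01. The interquartile range of all 145 pairs ran from -0.14 to 0.44, so most differences were small on either side.

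Large differences were few. Of the 145 pairs, 5 were at least 2-fold higher in Tyrobp-/- mice (3.45%, beside 6.93% of all pairs) and 5 at least 2-fold lower (3.45%, beside 6.05%). The higher ones were in Celf3, Prpf31, Rbm7 (8.14 and 17.2), Rbm20 (3.50 and 15.2) and Rbm47 (3.74 and 9.53). The FDR in WT mice was 9.55e-05 for Rbm7, 0.000129 for Rbm20, whose peaks share 1 base, and 3.02e-05 for Rbm47. The lower ones were in Hnrnpul2, Hnrnpf, Rbm20, Nova2 and Rbm12b1 (8.79 and 2.29). The WT value of 8.79 in Nova2 and Rbm12b1 is among the 10 most frequent values of its list. So is the Tyrobp-/- value of 9.53 in Rbm47 and in the lower Rbm20 pair. At an FDR below 1e-5 in both lists, 2 of 118 pairs were higher (beside 4.46% of all) and 3 lower (beside 3.37%).

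**Figure D4:**
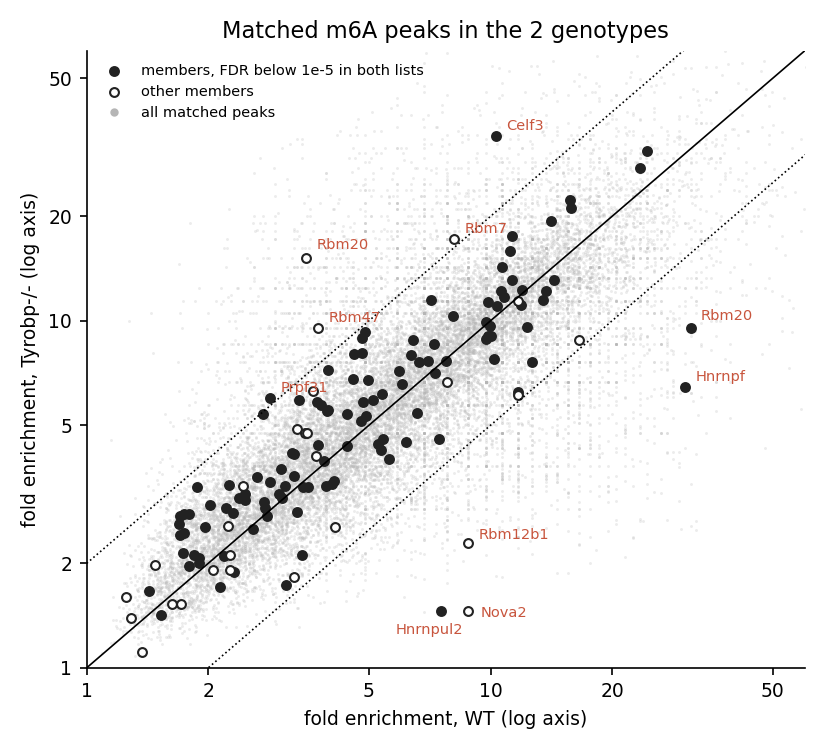
Fold enrichment in WT (x) and Tyrobp-/- mice (y), both on log axes shown from 1 to 60, of the 145 matched pairs of splicing and RNA-binding protein genes (black, filled where the FDR was below 1e-5 in both lists) over all matched pairs (grey). The solid line marks equal values and the dotted lines 2-fold, and the 10 named points lie past it.

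Among the pairs at FDR below 1e-5 in both lists, the 5 highest ratios were those of Celf3 (log2 1.72), of 2 Prpf31 peaks (2.84 in WT and 5.98 in Tyrobp-/- mice, and 2.73 and 5.40), of Prpf3 (4.88 and 9.29) and of Hnrnpm (4.80 and 8.91). The first Prpf31 peak lies at chr7:3642277-3642486 in WT mice and the second spans chr7:3635270-3642498, so the 2 reach the same end and are not independent. Prpf3, like Prpf31 a U4/U6 protein, carried this as its only peak, in the 3′ UTR. The Hnrnpm peak lies over Marchf2, outside the RefSeq limits of Hnrnpm. Of the 5, 4 lay in 3′ UTRs, 2 of them the Prpf31 peaks. Among all pairs of these genes 86 of 145 did so, and among the pairs of all genes 12615 of 23523.

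The 5 lowest ratios were those of Hnrnpul2 (7.54 in WT and 1.46 in Tyrobp-/- mice), Hnrnpf (30.3 and 6.43), of 2 Rbm20 peaks (31.3 and 9.53, and 11.7 and 6.25) and of Celf4 (3.11 and 1.73). In each, the WT peak was longer than the Tyrobp-/- peak paired with it. Lengths also differed among the 5 highest ratios. There the Tyrobp-/- peak was longer for Celf3 (300 against 210 bases) and the first Prpf31 pair (270 against 210). The same held for Prpf3 (570 against 450) and Hnrnpm (600 against 510). The second Prpf31 pair had 240 bases in Tyrobp-/- and 419 in WT mice. The part of peak length in these ratios was not tested. Hnrnpul2, a relative of the scaffold protein HNRNPU, had in WT mice 1 peak of 661 bases, and in Tyrobp-/- mice 1 of 181 bases with 6.79 at its left end and 1 of 211 bases with 1.46 near its right end, which shares more bases and so became the partner. Against the former the values were 7.54 and 6.79. The Hnrnpf peak spans 947 bases in WT mice, and Tyrobp-/- mice had 2 peaks of 415 and 296 bases there with 6.43 and 6.67. Of the 5 pairs at least 2-fold lower, 0 shared at least 50% of both peaks, beside 117 of all 145 pairs (80.7%), while 3 of the 5 at least 2-fold higher did.

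**Figure D5:**
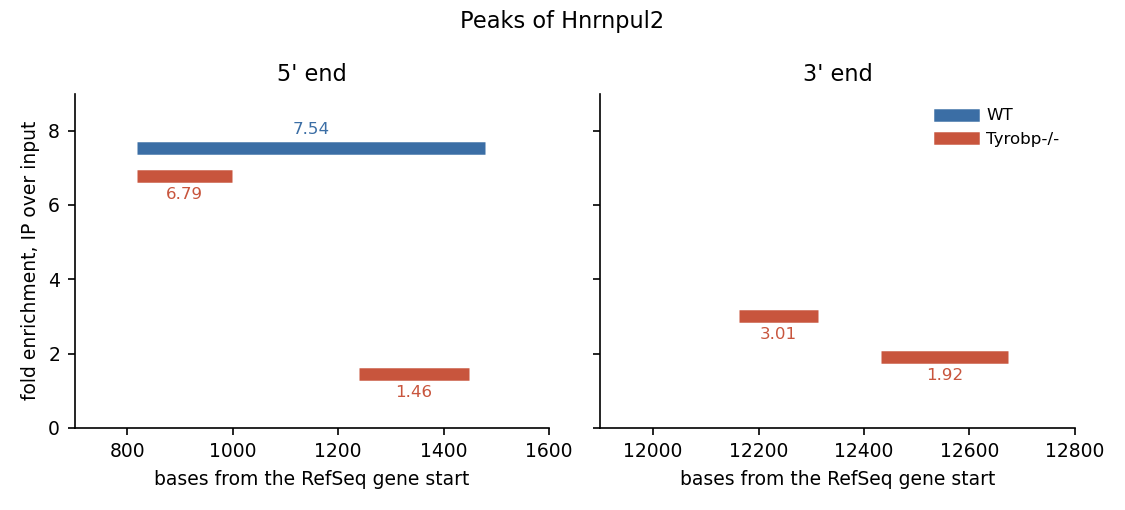
Peaks of Hnrnpul2 at the 5′ end (left) and the 3′ end (right) in WT (blue) and Tyrobp-/- mice (red), by distance in bases from the RefSeq gene start (x) and fold enrichment (y). The WT peak of 7.54 spans bases 819 to 1479, within which Tyrobp-/- mice have a peak of 6.79 and one of 1.46, and the 2 peaks at the 3′ end (3.01 and 1.92) are listed in Tyrobp-/- mice alone.

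Hnrnpul2 also held the lowest FDRs among Tyrobp-/- peaks without a partner, where its 3′ UTR had peaks of 3.01 (chr19:8831564-8831714) and 1.92 (chr19:8831834-8832074) at an FDR of 1e-131 and 1e-146, with no WT peak there. The reverse case was Hnrnpa3, an hnRNP of the A/B type, whose single peak in the 3′ UTR (chr2:75667429-75667789) reached 5.94 in WT mice with an FDR listed as 0, while Tyrobp-/- mice had no peak of any gene at this place. A list without a peak does not give a value there, so no fold is given for either gene.

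Some further genes listed in WT mice only had a Tyrobp-/- peak under another name. Sf3a3 had a 3′ UTR peak of 9.44 (chr4:124732191-124732460), and Tyrobp-/- mice had one of 9.94 at the same place that the authors assigned to Mir697. Hnrnpk had a 5′ UTR peak of 3.43, and a Tyrobp-/- peak of 3.45 there was assigned to its neighbour Rmi1. Another Hnrnpk call in WT mice, 2.52 at an FDR of 1.20e-05, had no Tyrobp-/- counterpart of any name. For these Sf3a3 and 3.43-fold Hnrnpk peaks, the listing in 1 genotype thus rests on the gene name. Hnrnph1 (1.22), Rbm5 (5.21, FDR 1.26e-11), Prpf39 (2.23), Rbm3 (4.88), Rbm46 (4.39), Srsf7 and the antisense gene Rbm3os (2.40) had no counterpart of any name. For Prpf39, Rbm3, Rbm46 and Rbm3os the FDR was 0.0302 to 0.0794. Prpf8, the protein at the catalytic core of the spliceosome, was listed in Tyrobp-/- mice only, with a weak 3′ UTR peak of 61 bases (2.02, FDR 2.00e-16).

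The 13 protein-coding genes without a peak in either list were Hnrnpa1, Hnrnpab, Hnrnpc, Prpf38a, Prpf40b, Ptbp2, Rbfox1, Rbm12, Rbm31y, Rbm42, Rbm44, Rbm48 and Sf3b6. For Rbm12, which overlaps Cpne1, strong peaks inside its span were listed under other names, the highest 11.0 in WT (as Cpne1) and 10.3 in Tyrobp-/- mice (as Gm28036). Inside the span of Rbm48, peaks of 10.8 and 11.1 were listed as 2510017J16Rik. The absence of these 2 genes thus rests on the choice of gene name. The pseudogenes Hnrnpa1l2-ps, Rbm3-ps, Rbm6-ps1, Rbm6-ps2, Rbm8a2 and Srsf3-ps and the antisense gene Rbm46os had none either, though WT peaks inside Rbm8a2 (2.54 and 7.81, as Pld5) and Rbm46os (8.79, as Lrat) were listed under other names at FDRs of 0.0851 to 0.162. The reverse occurs as well: the peak listed for Hnrnpa1l2-ps2 (7.46 and 4.57), counted as protein-coding in RefSeq despite its symbol, has 0% of its bases in that gene and lies in Cdh18.

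Besides the selected symbols, a list of 74 other splicing and RNA-binding genes (among them U2af1, Tra2a, Mbnl1 and Fmr1) was examined in the same way. Of these 74, 59 had a peak in each genotype, beside 56.8% of all protein-coding genes in WT and 58.2% in Tyrobp-/- mice. Their peaks had a median fold enrichment of 3.91 in WT (5.54 for all peaks) and 3.79 in Tyrobp-/- mice (5.72). The 99 matched pairs of these genes had a median log2 ratio of 0.08 (0.01 to 0.19), beside 0.05 for all pairs. Of the 99, 3 were at least 2-fold higher (beside 6.93% of all pairs) and 3 lower (beside 6.05%). The higher ones were in Khdrbs2 (5.13 and 14.8), Pcbp4 (3.59 and 7.94) and Tra2a, an activator of exon inclusion (21.8 and 43.8). The lower ones were in Khdrbs2 (27.3 and 8.70), Aqr (7.81 and 2.46) and Cpeb1 (5.14 and 2.36). The FDR in WT mice was 0.162 for Aqr, so its WT peak is poorly supported. It was 0.00269 for the higher Khdrbs2 pair and below 1e-5 for the others. These 6 pairs were named because they passed 2-fold.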

How the data were processed

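The authors trimmed reads with fastp, mapped them with HISAT2 to the mouse genome (version v96), called peaks with exomePeak on the samples of a genotype together and annotated them with ChIPseeker. Tool versions and the use of strand in counting were not given in the sources used here. For each peak the authors deposited the ratio of IP over input (fold enrichment), its p-value (at most 0.05) and a log10 FDR, handled here as a score. Per library, a deposited table gives read counts before and after trimming and GC in percent. Reads per peak were not used here, so the depth behind a peak is unknown. The authors' table comparing genotypes also holds fold changes, p-values and FDRs, which were not used. Its member regions were only counted, whether or not they differ between genotypes.

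Members were found by symbol, and the gene names and positions were checked against RefSeq (GRCm38.p6): 96 of 96 overlapped. The members and lists were chosen with earlier results of these data known. A peak had a partner if its exon blocks overlapped any peak of the same gene in the other list. For ratios, reciprocal best pairs were kept and the log2 ratio of fold enrichment was taken. Exact binomial (Clopper-Pearson) intervals at 95% were given for shares and order-statistic intervals for medians. Peaks of 1 gene and overlapping calls are not independent, which the intervals do not cover. Genes named were the whole Srsf, Celf, Elavl, Rbfox, Nova and Ptbp families, the strongest peak of each family in each list, the 5 highest and 5 lowest ratios at FDR below 1e-5, members listed in 1 genotype or none, the 5 with most peaks, and Hnrnpc, Hnrnpa2b1 and Rbmx. Hnrnpd, Hnrnpdl, Hnrnpr, Rbm4, Rbm7, Rbm12b1, Rbm12b2, Rbm47, the Sf3 genes, the genes over whose start a peak lies and the genes of the second list were named after their values were seen. Alternatives were another FDR, fold enrichment, overlap, threshold, centring and unit of counting. The matching was tested on simulated data. Tools were pandas 2.3.3 and numpy 2.4.6 for tables, scipy 1.17.1 for intervals and matplotlib 3.10.9 for figures, under Python 3.11.15.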

Additional observations from a re-analysis of the deposited data

How the results depend on the processing

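Of 63 alternative values, 43 stayed within the interval of the value reported or within 1.5 times the count, and 20 moved. No paired analysis was possible because each peak has a single value over the pooled samples of a genotype, and for the same reason no sample could be left out. A minimum fold enrichment of 4 left 97 peaks in WT and 96 in Tyrobp-/- mice, with medians of 7.54 and 7.64. It gave a 3′ UTR share of 40.2% in WT mice and a partner share of 76.0% in Tyrobp-/- mice. The 5′ UTR share of Hnrnp peaks was then 66.7% in WT and 55.6% in Tyrobp-/- mice. Taking 1 peak per gene gave medians of 4.88 and 5.83. For Hnrnp genes it gave a 5′ UTR share of 61.1% in WT and 60.0% in Tyrobp-/- mice. Requiring 50% of both peaks to be shared lowered the partner shares to 61.2% in WT and 64.2% in Tyrobp-/- mice and left 3 pairs at least 2-fold higher and 0 lower. At an FDR below 1e-5 in both lists 2 were higher and 3 lower, with 1 value per gene 1 and 1, and at 1.5-fold 22 and 14. The median log2 ratio stayed above 0 under each of the 7 alternatives tried for it, between 0.10 (centred on all pairs) and 0.20. The settings on gene names, on overlapping peaks (counted once, or the highest of them), on 1 value per gene, on the RefSeq limits and for the Hnrnp 5′ UTR share were chosen after seeing the data. The lists hold 1 value per genotype, so no result here has an error between animals.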

Other observations

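Fold enrichments in these lists repeat at evenly spaced values. The 10 most frequent in the WT list (6.84 in 1281 peaks, then 7.81, 8.79 and so on) account for 18.6% of all peaks and for 23 of the 206 peaks of splicing and RNA-binding protein genes (11.2%). In the Tyrobp-/- list (6.67 in 1361 peaks, then 7.62 and 8.58) they account for 19.4% of all and for 15 of 193 (7.77%). Of the 23 WT peaks at such values, 13 had an FDR below 0.05, beside 194 of all 206. Values above these 10, such as 31.3 and 23.4 in Rbm20 and 30.3 in Hnrnpf in WT mice, were not counted. The same holds for 17.2 in Rbm7 and 15.2 in Rbm20 in Tyrobp-/- mice. Whether such values belong to the same series was not tested.

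Several peaks of these genes lie where the gene name is uncertain. In WT mice 11 peaks from 7 genes, and in Tyrobp-/- mice 10 from 8, had under 50% of their bases inside the RefSeq gene of their name, among them those of Ptbp1, Hnrnpm, Prpf6, Rbm25 and Celf6. In each list 43 peaks overlapped the span of another RefSeq gene. Within a list, 38 WT and 33 Tyrobp-/- peaks overlapped another peak of the same gene (18.4% and 17.1%, beside 11.8% and 11.3% of all peaks), and counting each such place once gives 186 and 175 regions.

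In the authors' table that compares the genotypes, 32 of the 51 regions of these genes (62.7%) lay in 3′ UTRs, beside 53.3% of all its regions. A further 15 (29.4%) lay in 5′ UTRs, beside 17.9%. The sources used here do not state by which rule regions entered that table. A region in it is therefore not taken here as a difference between genotypes.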
